A study of Homo sapiens with 2 samples.

Results

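The RUNX, ETO and E-protein families are transcription factors and corepressors that meet in shared complexes. RUNX proteins bind DNA through the Runt domain, and CBFB, which does not bind DNA itself, holds that domain in its binding form. The ETO proteins (RUNX1T1, also called ETO or MTG8, CBFA2T2 and CBFA2T3) do not bind specific DNA sites themselves and bring nuclear receptor corepressors and histone deacetylases to factors such as the E-proteins. E-proteins (TCF3, TCF4 and TCF12) are basic helix-loop-helix factors that pair with each other or with tissue-restricted partners on E-box motifs, and the ID proteins block them. RUNX1 and RUNX1T1 are joined in a fusion protein of acute myeloid leukaemia, and all these families are best known from blood, bone, muscle and neural development.

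The 9 genes RUNX1, RUNX2, CBFB, RUNX1T1, CBFA2T2, CBFA2T3, TCF3, TCF4 and TCF12 were taken by name, with every transcript that GENCODE v29 gives them, which made 9 of 57894 genes and 247 of 197318 transcripts. They were selected on the measured gene-level change of RUNX1T1, which earlier results had at higher levels in the knockout, and on transcript usage results of these libraries, so both are given here as descriptions, from which nothing is read as a test. Total RNA was sequenced from HEK293, an established line of human embryonic kidney origin. The LARP7 knockout group was 2 libraries of clone 1-11, and the parental group was 2 libraries of unmodified HEK293 cells. All knockout libraries come from 1 clone, so the knockout and any other difference of that clone cannot be told apart. The source field of the knockout sample reads wildtype, while its title and genotype field say knockout, and the genotype was used. The labels do not say whether libraries of the same group were made from separate cultures. The p-values therefore measure only the spread between libraries, which may be technical.

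The knockout libraries held 16838501 and 16218587 estimated reads, and the parental libraries 18483220 and 12851942. LARP7, the La-related protein that stabilises 7SK RNA, stood at 36.1 and 31.9 CPM (counts scaled to library size with TMM factors) in knockout libraries, against 59.8 and 46.5 CPM in parental libraries (log2 change -0.65 ± 0.16, SE, edgeR adjusted p = 0.135). 7SK RNA had 169 and 205 CPM in knockout libraries, against 5572 and 5481 CPM in parental libraries (edgeR adjusted p = 1.13e-06). All 8 HEK293 lineage genes checked were expressed. One of them, NEFM, a neurofilament gene, was lower in the knockout, at 7.76 and 8.58 CPM in knockout libraries and 49.4 and 73.6 CPM in parental libraries (log2 change -2.91 ± 0.22, SE, edgeR adjusted p = 0.00164), and the other 7 did not pass, 2 of them at an unadjusted p under 0.05. The 8 blood markers summed to at most 2.28 CPM in any library, the 6 muscle and bone markers to at most 0.355 CPM and the 7 fibroblast markers to at most 13.8 CPM. Of the 3 fibroblast markers tested, all had a positive change and none passed, with 1, PDGFRA, at an unadjusted p under 0.05 (edgeR). The 6 neuronal markers summed to 76.9 and 73.2 CPM in knockout libraries and 60.6 and 46.8 CPM in parental libraries. Most of each sum was INA alone, at 59.2 and 51.6 CPM in knockout libraries and 45.6 and 30.6 CPM in parental libraries. Of the 4 neuronal markers tested none passed, 2 of them at an unadjusted p under 0.05 (edgeR). The part of all these marker differences in the results below was not tested. Fragment lengths were not measured directly. Those implied by the effective transcript lengths, as a median over long transcripts, were 234 and 227 bases in knockout libraries and 218 and 208 bases in parental libraries. Less RNA per cell and fewer cells with a given RNA cannot be told apart in these bulk samples.

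Several results concern which exon or which start a gene used, and the sequences behind some of them are set out here, 5′ to 3′ on the gene's strand. TCF3 codes for E12 or E47, depending on which of a pair of neighbouring coding exons joins the mature RNA, and each exon holds the basic region that contacts the E-box. Coordinates are those of GENCODE v29 (GRCh38).

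CBFB exists as a form of 182 residues and a form of 187 residues, which differ at the C-terminus. Exon 5 of CBFB has 127 bases in CBFB-201, the shorter protein, and ends 31 bases earlier, after 96 bases, in CBFB-202. The exon lies at chr16:67082213-67082339 on the plus strand, and capitals mark the 31 bases that CBFB-201 alone of this pair includes. TCF12 has an optional coding exon of 72 bases (exon 15 of TCF12-202, chr15:57252421-57252492, plus strand), printed in capitals because all of it is optional, which makes the protein 706 residues long in place of 682.
CBFB exon 5: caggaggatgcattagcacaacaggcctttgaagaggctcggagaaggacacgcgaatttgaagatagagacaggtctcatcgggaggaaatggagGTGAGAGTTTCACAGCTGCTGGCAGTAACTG
TCF12 optional exon: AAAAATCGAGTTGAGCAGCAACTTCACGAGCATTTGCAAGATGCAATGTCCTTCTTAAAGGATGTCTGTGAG

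RUNX1, RUNX2 and CBFA2T2 were read from particular starts, so the 250 bases before these starts are shown from RefSeq (GRCh38.p14). The RUNX1 window is that of the proximal start (chr21:34888700-34888949, minus strand), the RUNX2 window that of the distal start (chr6:45328080-45328329, plus strand), and the CBFA2T2 window that of a start whose reads differed between the groups (chr20:33562092-33562341, plus strand). Capitals mark the RUNX motif TGTGGT or TGCGGT and the E-box motif CANNTG, searched on both strands. The RUNX2 window held 2 matches to TGTGGT, both on the strand opposite to the gene, and 1 E-box motif that overlaps the second of them. The CBFA2T2 window held 2 E-box motifs and no RUNX motif, and the RUNX1 window held neither. Among 35116 windows of this length in the RefSeq table, 11% held TGTGGT, 5.84% held TGCGGT and 61.8% held an E-box motif. A match is a description of the letters and shows no binding.
RUNX1 proximal: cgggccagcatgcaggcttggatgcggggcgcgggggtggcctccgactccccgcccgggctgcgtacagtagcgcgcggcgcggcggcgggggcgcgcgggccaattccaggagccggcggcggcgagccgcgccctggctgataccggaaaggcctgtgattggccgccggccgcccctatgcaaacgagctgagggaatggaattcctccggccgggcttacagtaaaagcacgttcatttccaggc
RUNX2 distal: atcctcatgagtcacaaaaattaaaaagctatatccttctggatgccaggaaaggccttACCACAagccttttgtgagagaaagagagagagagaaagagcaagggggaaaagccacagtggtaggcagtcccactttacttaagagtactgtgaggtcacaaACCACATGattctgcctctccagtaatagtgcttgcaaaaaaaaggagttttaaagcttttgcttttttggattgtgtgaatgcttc
CBFA2T2: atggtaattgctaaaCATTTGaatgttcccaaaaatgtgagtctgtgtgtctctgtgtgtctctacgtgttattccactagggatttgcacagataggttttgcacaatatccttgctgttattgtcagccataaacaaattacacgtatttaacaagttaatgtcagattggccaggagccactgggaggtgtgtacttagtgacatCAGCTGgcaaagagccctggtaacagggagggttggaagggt

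All 9 genes passed the filter on low counts. RUNX1T1 was higher in the knockout, while none of the other 8 passed. Of 18484 genes tested in all, 0.33% were called higher and 0.503% lower (edgeR, adjusted p under 0.05), and nothing is read from the 1 of 9 called here, since the gene was chosen with that call known. By CPM, both knockout libraries lay above both parental libraries for RUNX1T1, TCF4, CBFA2T2 and TCF12 (4 of 9, against 23.5% of all genes tested) and below them for TCF3 (1 of 9, against 22.7%). The groups overlapped for CBFB, RUNX1, RUNX2 and CBFA2T3. The fitted change was positive for 7 genes and negative for 2, with a median of 0.15 on the log2 scale, beside a median of 0.00236 over all genes tested. RUNX1T1, chosen with its rise known, is counted in the 4 of 9, in the 7 and in the median. Nothing is read from these either.

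**Figure D1:**
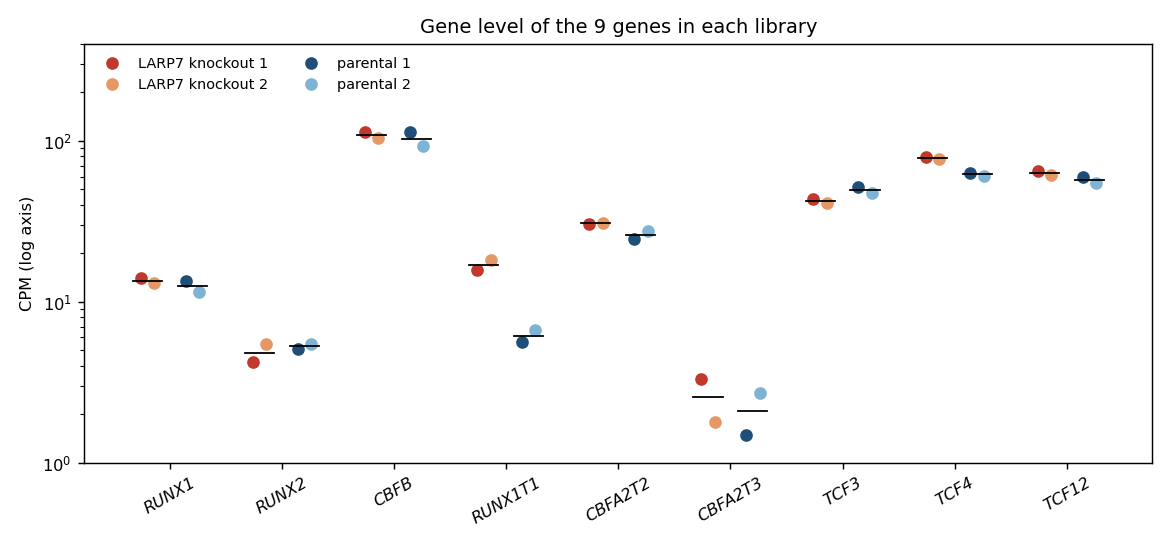
CPM of the 9 genes on a log axis, with 1 point per library (2 LARP7 knockout, left, and 2 parental, right, for each gene) and a line at each group's mean. RUNX1T1 is the gene with the widest gap between groups, at 15.8 and 18.1 CPM in knockout libraries and 5.63 and 6.67 CPM in parental libraries.

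None of the core-binding factors, RUNX1, RUNX2 and CBFB, passed the test, and their groups overlapped. CBFB, the shared partner of the RUNX proteins, had 1944 and 1772 reads in knockout libraries and 1997 and 1163 in parental libraries, or 109 ± 6.09 and 103 ± 14.9 CPM (SD, n = 2 each). Its log2 change was 0.08 ± 0.14 (SE, edgeR adjusted p = 0.84), and the value of parental replicate 1 lay level with the higher knockout library. RUNX1, a master regulator of definitive blood formation, had 240 and 221 reads in knockout libraries and 238 and 144 in parental libraries. At 13.5 ± 0.659 CPM in knockout libraries and 12.5 ± 1.48 CPM in parental libraries (SD, n = 2 each), its log2 change was 0.11 ± 0.20 (SE, edgeR adjusted p = 0.853). RUNX2, required for bone formation, had 72 and 92 reads in knockout libraries and 89 and 69 in parental libraries, with overlapping groups and a log2 change of -0.13 ± 0.31 (SE, edgeR adjusted p = 0.899). The direction of each of the 3 genes turned under at least 1 other processing or with 1 library left out, so no direction is given for them.

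Most genes around RUNX1 on chromosome 21 had negative changes. Of 53 protein-coding genes tested within 5 Mb of its start, 44 had a negative log2 change, with a median of -0.23. RUNX1 itself stood 0.35 above that median. Around CBFB and RUNX2 the medians were -0.02 (96 genes) and -0.01 (70 genes).

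Most RUNX1 reads fell on transcripts of the proximal start printed above. This start gives the forms of 453 residues (RUNX1-202) and 250 residues (RUNX1-203), the second of which lacks most of the C-terminal activation region. RUNX1-202 had 205 and 163 reads in knockout libraries and 179 and 81.3 in parental libraries. RUNX1-203 had 25.4 and 47 reads in knockout libraries and 39.1 and 36.7 in parental libraries. Of the TPM of these forms, the form of 250 residues took 26% and 44.9% in knockout libraries and 37.1% and 53.8% in parental libraries, so the groups overlapped. The form of 480 residues from the distal start had 0 reads in both knockout libraries and 7 and 6 reads in the parental ones, and a count of 0 among 230 and 210 reads allows a share of up to 1.3% and 1.43%, for counting error only. RUNX1-213, a retained-intron transcript, had 10 and 11 reads in knockout libraries and 12 and 20 in parental libraries.

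Most of the few RUNX2 reads were assigned to its distal start, the bone-type promoter printed above. Transcripts that start there held 72.0 and 82.5 reads in knockout libraries and 89.0 and 67.0 in parental libraries. The proximal start held 0 and 9.49 reads in knockout libraries and 0 and 0 in parental libraries. RUNX2-204, which codes for 521 residues, was the transcript with the most reads, 63.4 and 45.6 in knockout libraries and 71.7 and 50.5 in parental libraries. RUNX2-209, a transcript annotated for nonsense-mediated decay, had 8.62 and 15 reads in knockout libraries and 10.8 and 16.5 in parental libraries. By TPM the picture in parental replicate 2 was different, because the distal region held 52.4% there and RUNX2-206, a short noncoding transcript with 2 reads, 47.6%. RUNX2-208, another noncoding transcript, had 2 reads in knockout replicate 2 and none elsewhere. At this depth no firm statement on RUNX2 starts was possible.

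Both CBFB forms were present in every library, in unequal and unsteady proportions. CBFB-201, whose exon 5 includes the 31 bases in capitals, had 1362 and 910 reads in knockout libraries and 960 and 719 in parental libraries. CBFB-202 had 572 and 840 reads in knockout libraries and 987 and 414 in parental libraries. The form of 182 residues took 69.2% and 50.5% of the TPM of both forms in knockout libraries and 47.9% and 62.1% in parental libraries, so the libraries of a group lay further apart than the groups did. Wilson 95% intervals of the matching read shares ran from 68.3 to 72.4% and from 49.6 to 54.3% in knockout libraries and from 47.1 to 51.5% and from 60.6 to 66.2% in parental libraries. The spread within each group was wider than these intervals, which cover counting error only and not the division of reads among transcripts.

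Among the ETO corepressors, RUNX1T1 was the gene that differed. It had 270 and 306 reads in knockout libraries and 99 and 84 in parental libraries, or 15.8 and 18.1 CPM against 5.63 and 6.67 CPM. Both knockout libraries lay above both parental ones, at 16.9 ± 1.66 CPM in knockout libraries and 6.15 ± 0.738 CPM in parental libraries (SD, n = 2 each), and the fitted level was 2.76-fold higher (log2 change 1.47 ± 0.22, SE). Over 14 other ways of processing, the log2 change ranged from 1.26 to 1.59. With an offset for transcript length it was 1.26 and RUNX1T1 was no longer among the genes called, and likewise without knockout replicate 2, at 1.37. RUNX1T1 lies on chromosome 8 (91954967 to 92103286, minus strand, GRCh38). There, 33 protein-coding genes tested within 5 Mb of its start had a median log2 change of -0.06. Of these neighbours, 14 had a positive change, and 1 was itself called higher in the knockout (edgeR). RUNX1T1 stood 1.53 above the median of its neighbours. An antisense gene that overlaps 66 of its exon bases had 6 reads over the 4 libraries.

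**Figure D2:**
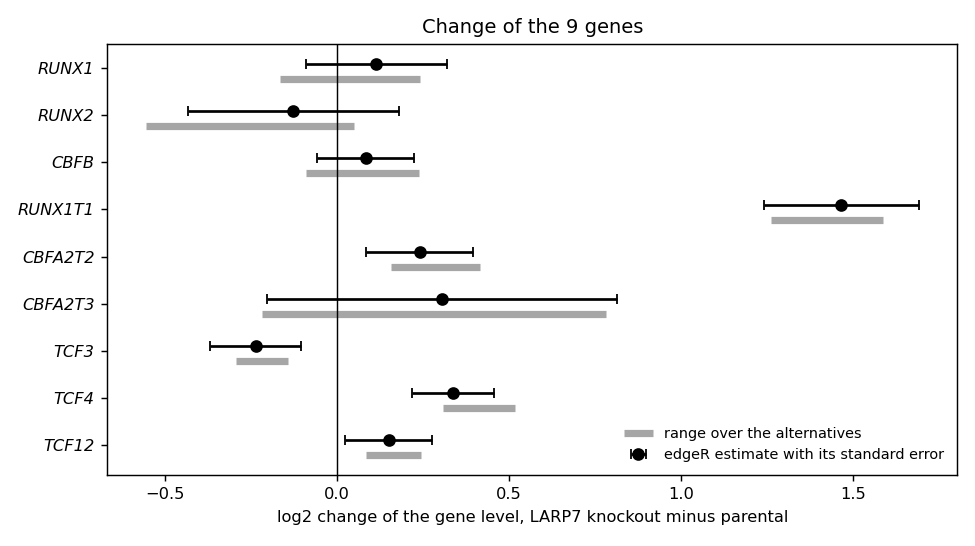
Log2 change of each gene, LARP7 knockout minus parental, with the edgeR estimate and its standard error (points) and the range over the other ways of processing and the libraries left out (grey bars). The bar of RUNX1T1 runs from 1.26 to 1.59, while those of RUNX1, RUNX2, CBFB and CBFA2T3 cross 0.

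Per transcript length, the order of RUNX1T1 and its relative CBFA2T2 differed between the groups. RUNX1T1 stood at 6.95 and 7.91 TPM in knockout libraries, above CBFA2T2 at 5.69 and 5.78 TPM. In parental libraries, RUNX1T1 stood at 2.17 and 2.43 TPM, below CBFA2T2 at 3.68 and 2.80 TPM. By reads and CPM, RUNX1T1 was below CBFA2T2 in every library, and its TPM rests on short transcripts that were poorly resolved. By TPM, CBFB, TCF3, TCF4 and TCF12 took the first 4 places in every library and exchanged places among themselves. RUNX1, RUNX2 and CBFA2T3 took the last 3 places, also in changing order.

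The excess of RUNX1T1 reads was spread over several start regions of the gene (starts at most 500 bases apart). Of its 52 annotated transcripts, 21 had reads and 3 had at least 1 read in every library, so single transcripts were poorly resolved. Region 3, counted from the 5′ end, holds 32 transcripts and had 8.89 and 3.08 CPM in knockout libraries and 0.527 and 1.62 CPM in parental libraries. Region 8, further inside the gene, had 2.14 and 5.44 CPM in knockout libraries and 0.258 and 0.262 CPM in parental libraries. Regions 6 and 9 also had more reads in both knockout libraries than in either parental library. In regions 1 and 2 the groups overlapped, with 1.08 and 4.32 CPM in knockout libraries and 3.60 and 0 CPM in parental libraries for region 1. Region 7, with the single short transcript RUNX1T1-230 (171 residues), ran the other way, with 0 and 0.162 CPM in knockout libraries and 0.291 and 0.855 CPM in parental libraries. On 0 and 2.74 reads in knockout libraries and 5.12 and 10.8 in parental libraries, it took 0 and 4.73% of the gene's TPM in knockout libraries and 25.9% and 52.5% in parental libraries. RUNX1T1-204, which starts in region 8 and codes for 567 residues, had 11.2 and 69.9 reads in knockout libraries and no reads in parental libraries, where a count of 0 among 99 and 84 reads allows up to 3.03% and 3.57%. RUNX1T1-217, of 229 residues, had 18 and 15.7 reads in knockout libraries and none in parental libraries, under the same limits. RUNX1T1-234, of 210 residues, had 25.5 and 22 reads in knockout libraries and 4.54 and 3.3 in parental libraries. The share of protein-coding transcripts in RUNX1T1's TPM, 68.8% and 74.7% in knockout libraries and 70.3% and 79.0% in parental libraries, overlapped between the groups, and transcript usage of RUNX1T1 was not called.

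**Figure D3:**
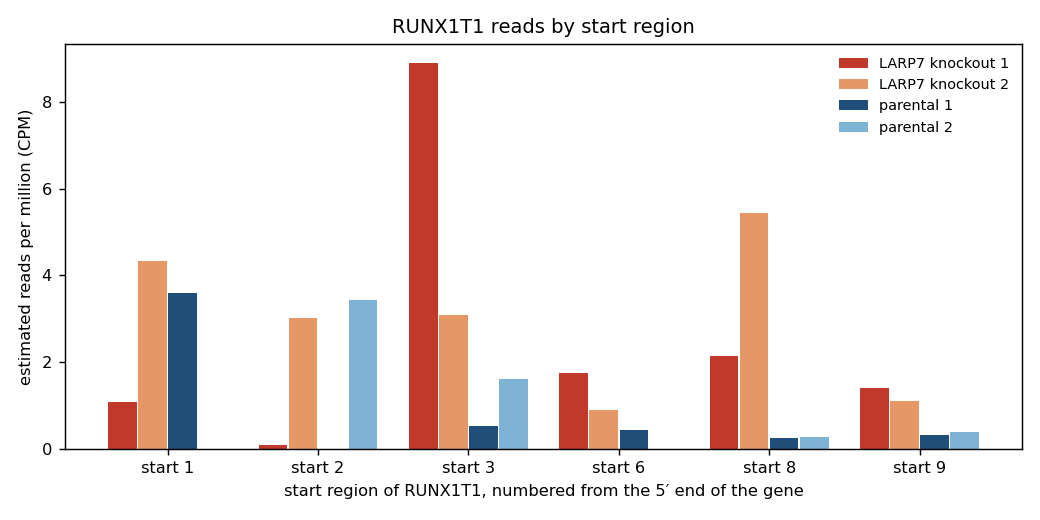
CPM of RUNX1T1 in the 6 start regions with over 20 reads in all, numbered from the 5′ end of the gene, with 1 bar per library (knockout left, parental right). In regions 3, 6, 8 and 9 both knockout bars exceed both parental bars, and in regions 1 and 2 they do not.

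The 5 genes whose pattern over the 4 libraries was most like that of RUNX1T1, by distance between centred log2 CPM among 12058 protein-coding genes, were NEXMIF (0.0975), ETS1 (0.109), PLXDC2 (0.113), NOVA2 (0.137) and IL1R1 (0.143). ETS1, an ETS-family factor that can bind DNA together with RUNX1, had 7.06 and 7.40 CPM in knockout libraries and 2.27 and 2.86 CPM in parental libraries. NEXMIF, a neuronal X-linked gene, had 11.6 and 12.4 CPM in knockout libraries and 4.09 and 5.00 CPM in parental libraries. With 4 libraries, likeness is a description of this one contrast.

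CBFA2T2 and CBFA2T3, the other ETO proteins, did not pass the test at gene level. CBFA2T2, known as MTGR1, had 524 and 521 reads in knockout libraries and 432 and 346 in parental libraries, or 30.7 ± 0.172 and 26 ± 2.07 CPM (SD, n = 2 each). Its knockout libraries lay above its parental ones, with a log2 change of 0.24 ± 0.16 (SE, edgeR adjusted p = 0.535). CBFA2T3, known as MTG16, was thinly covered, with 57 and 30 reads in knockout libraries and 26 and 34 in parental libraries. Its groups overlapped, its log2 change was 0.31 ± 0.51 (SE, edgeR adjusted p = 0.838), and its direction turned when knockout replicate 1 or parental replicate 1 was left out. Of its transcripts, CBFA2T3-202 had 40.8 and 3.93 reads in knockout libraries and 0 and 7.18 in parental libraries. CBFA2T3-210 had 11.3 and 5.29 reads in knockout libraries and 11 and 9.9 in parental libraries. The retained-intron transcript CBFA2T3-205 had 3.05 and 20.8 reads in knockout libraries and 11 and 16.9 in parental libraries, so all 3 overlapped between the groups.

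CBFA2T2 differed between the groups in which first exon its reads were assigned to. CBFA2T2-205, which starts at 33490117 on chromosome 20, had 108 and 108 reads in knockout libraries and 0.286 and 0.111 in parental libraries. CBFA2T2-203, which starts at 33562365, next to the window printed above, had no reads in knockout libraries and 76.3 and 52.0 in parental libraries. CBFA2T2-206, from the same region as CBFA2T2-203, had no reads in knockout libraries and 12.4 and 33.3 in parental libraries. A count of 0 among the 524 and 521 reads of the gene allows a share of up to 0.573% and 0.576%, for counting error only. CBFA2T2-204, the transcript with the most reads, starts at 33600336 and did not follow this split, with 302 and 282 reads in knockout libraries and 286 and 193 in parental libraries. CBFA2T2-201, which starts in the same region as CBFA2T2-205, had 74.2 and 38.6 reads in knockout libraries and 19.2 and 37.9 in parental libraries. CBFA2T2-207, a noncoding transcript of that region, had 9.25 and 6.25 reads in knockout libraries and 4.2 and 0 in parental libraries. CBFA2T2-210, the 3′-most of these starts, had 30.9 and 78.6 reads in knockout libraries and 24 and 30.1 in parental libraries.

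The coding sequence of CBFA2T2-205 and CBFA2T2-203 is the same, 604 residues. They share 7427 bases, and what tells them apart is 190 bases of CBFA2T2-205 and 310 bases of CBFA2T2-203, none of them coding. Summed over transcripts, those of the first start region held 191 and 153 reads in knockout libraries and 24 and 38 in parental libraries, and those of the second 0 and 0 in knockout libraries and 89 and 85 in parental libraries. CBFA2T2 was among the 65 of 9475 genes called for transcript usage (edgeR diffSpliceDGE, Simes adjusted p under 0.05), beside a background of 0.686%. The call held without a share minimum, at a minimum share of 10% and at a minimum of 30 reads. It was lost with limma diffSplice, which called 0 genes and had 794 at an unadjusted p under 0.05, and with the replicate block. It was also lost with each library left out, but such a fit has 1 library in a group, so this loss decides nothing. Nothing is read from the call, since usage results of these libraries were known when the genes were chosen.

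**Figure D4:**
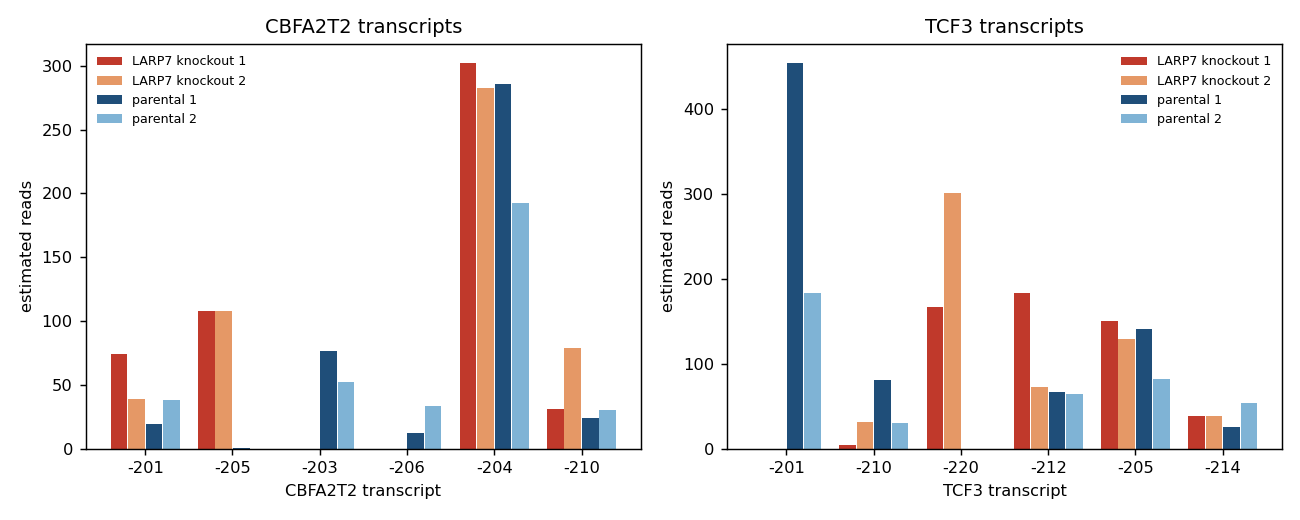
Estimated reads of the main transcripts of CBFA2T2 (left panel) and TCF3 (right panel), with 1 bar per library (knockout left, parental right). The left panel is ordered from the 5′-most start, and the right panel is not strictly in the order of starts. CBFA2T2-205 and TCF3-220 have bars in knockout libraries, CBFA2T2-203, CBFA2T2-206 and TCF3-201 in parental libraries, and the other transcripts in both.

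Of the E-proteins, TCF4 and TCF12 had higher CPM in both knockout libraries and TCF3 fewer, and none passed the test. TCF4, also called E2-2, had 1358 and 1301 reads in knockout libraries and 1106 and 766 in parental libraries, or 78.1 ± 1.61 and 61.8 ± 1.43 CPM (SD, n = 2 each). Its log2 change was 0.34 ± 0.12 (SE, edgeR unadjusted p = 0.021, adjusted p = 0.259). It was called without parental replicate 1 (adjusted p = 0.0431), in a fit that called 2265 genes, and in no other of the 14 alternatives. TCF12, also called HEB, had 1116 and 1044 reads in knockout libraries and 1050 and 687 in parental libraries, or 63.4 ± 2.38 and 57.1 ± 3.62 CPM (SD, n = 2 each), with a log2 change of 0.15 ± 0.13 (SE, edgeR adjusted p = 0.64). Within 5 Mb of TCF12 on chromosome 15, 31 of 40 protein-coding genes tested had a positive change, with a median of 0.19, so TCF12 lay 0.04 below its neighbours. TCF3 had 741 and 695 reads in knockout libraries and 907 and 601 in parental libraries, or 42.2 ± 1.5 and 49.6 ± 2.70 CPM (SD, n = 2 each), with a log2 change of -0.24 ± 0.13 (SE, edgeR adjusted p = 0.47). The change of TCF3 was negative, and those of TCF4 and TCF12 positive, under all 14 alternatives.

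TCF4 reads were divided over 26 start regions and 89 transcripts, with 49 of them read. Region 17 had 21.2 and 18 CPM in knockout libraries and 16.6 and 16.0 CPM in parental libraries. Region 13, with a single retained-intron transcript, had 7.49 and 7.99 CPM in knockout libraries and 5.53 and 4.32 CPM in parental libraries. Both regions had higher values in both knockout libraries. Other regions were high in 1 library alone, such as region 6, with 20.4 and 4.35 CPM in knockout libraries and 2.19 and 4.52 CPM in parental libraries, and region 7, with 15.8 CPM in parental replicate 1 and at most 0.215 CPM in the other libraries. TCF4-216, a retained-intron transcript of region 17, had 318 and 243 reads in knockout libraries and 250 and 171 in parental libraries. Summed over TCF4, retained-intron transcripts had 26.3 and 23.1 CPM in knockout libraries and 19.9 and 18.1 CPM in parental libraries. Protein-coding transcripts overlapped between the groups, with 32.7 and 18.03 CPM in knockout libraries and 24.02 and 28.2 CPM in parental libraries. Noncoding processed transcripts and those annotated for nonsense-mediated decay also overlapped. An antisense gene with 49 reads over the 4 libraries overlaps 65 exon bases of TCF4.

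TCF12 reads came from a distal region and from a downstream start that gives a shorter protein. The first start region had 34.4 and 37.4 CPM in knockout libraries and 39.3 and 36.3 CPM in parental libraries, with overlapping groups. The seventh region, at 57219037 to 57219466 on chromosome 15, had 23.1 and 15.7 CPM in knockout libraries and 15.2 and 11.4 CPM in parental libraries. Its transcript TCF12-203 codes for 512 residues. Of the TPM of the forms compared, the 512-residue form took 48.8% and 34.6% in knockout libraries and 32.4% and 27.4% in parental libraries, a mean of 41.7 ± 10.0% and 29.9 ± 3.53% (SD, n = 2 each). The knockout values lay above the parental ones by less than the gap between the knockout libraries, and transcript usage of TCF12 was not called. The form of 706 residues, which includes the exon of 72 bases, took 12.9% and 15.6% in knockout libraries and 6.70% and 26.4% in parental libraries. Of the transcripts of 682 residues, TCF12-201 had 411 and 335 reads in knockout libraries and 342 and 214 in parental libraries, and TCF12-207 had 47.5 and 156 in knockout libraries and 261 and 87.9 in parental libraries. TCF12-224, a noncoding transcript, had 63.8 and 69.4 reads in knockout libraries and 49.5 and 51.2 in parental libraries.

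TCF3 differed in the transcript that its reads were assigned to, but not in a way that altered the protein of those transcripts. TCF3-220 had 167 and 301 reads in knockout libraries and, rounded to whole reads, none in parental libraries, where a count of 0 among 907 and 601 reads allows up to 0.331% and 0.499%. TCF3-201 had, rounded in the same way, no reads in knockout libraries, where a count of 0 among 741 and 695 reads allows up to 0.405% and 0.432%, and 454 and 184 in parental libraries. Both code for the same 654 residues and both include the E12 exon. Every base of TCF3-220 lies within TCF3-201, which has 42 bases more, none of them coding, so those bases alone tell the transcripts apart. Their starts differ, with TCF3-201 in start region 1 (1652329 to 1652605) and TCF3-220 in region 3 (1650278 to 1650745). Region 1 had 5.46 and 5.22 CPM in knockout libraries and 34.2 and 24.6 CPM in parental libraries. Region 3 had 20.5 and 22.1 CPM in knockout libraries and 3.79 and 5.09 CPM in parental libraries. TCF3 too was among the genes called for usage, the call was lost in the same alternatives, and nothing is read from it. TCF3-210, of 213 residues, had 4.9 and 31.1 reads in knockout libraries and 81 and 30.5 in parental libraries. TCF3-212, which carries the E47 exon, had 183 and 72.8 reads in knockout libraries and 66.7 and 64.1 in parental libraries. TCF3-214, a retained-intron transcript, had 38.6 and 38.8 reads in knockout libraries and 25.8 and 53.4 in parental libraries.

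The balance of the E12 and E47 exons was read over 14 transcripts, 8 with the E12 exon, 2 of them not protein-coding, and 6 with the E47 exon. By TPM, E12 took 36.5% and 39.1% in knockout libraries and 49.2% and 53.5% in parental libraries, so E47, at 63.5% and 60.9% in knockout libraries and 50.8% and 46.5% in parental libraries, was the larger part in the knockout. Over the protein-coding transcripts alone, E12 took 23.8% and 35.4% in knockout libraries and 41.5% and 53.5% in parental libraries. By estimated reads over all 14 transcripts the groups overlapped. E12 had 296 of 696 reads and 362 of 624 reads in knockout libraries, or 42.5% and 58.0%, and 531 of 796 and 275 of 517 in parental libraries, or 66.7% and 53.2%. The short transcript TCF3-205, which carries the E47 exon, took 28.9% and 28.3% of the TPM of TCF3 in knockout libraries and 25.5% and 16.7% in parental libraries.

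**Figure D5:**
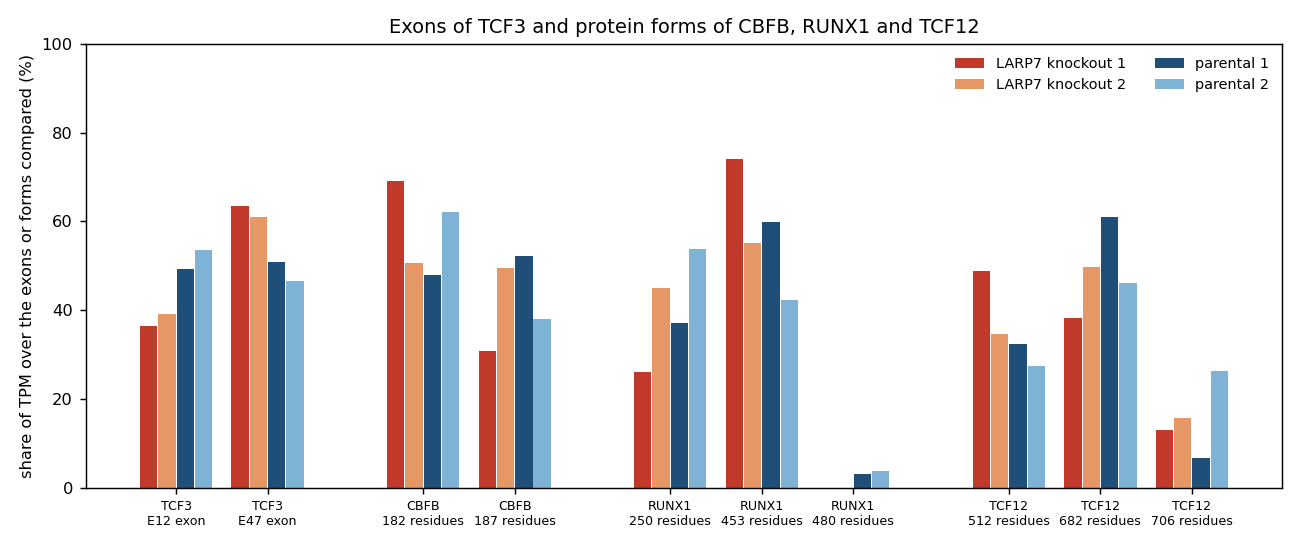
Share of TPM taken by the transcripts with each TCF3 exon, noncoding ones included, and by each protein form of CBFB, RUNX1 and TCF12, over the exons or forms compared, with 1 bar per library (knockout left, parental right). The E12 share of TCF3 is lower in both knockout libraries. For CBFB and the RUNX1 forms of 250 and 453 residues, the libraries of a group differ by more than the groups. The RUNX1 form of 480 residues is at 0 in knockout libraries and at 2.99% and 3.86% in parental libraries.

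Of the partners and targets of these factors described here, ID3 passed the test with edgeR. The lists were written with earlier results of these data known, and their counts stand beside the 0.833% of all genes that edgeR called, the 2.22% that DESeq2 called and the 0.812% that limma voom called. At an unadjusted p under 0.05 stood 14.3% of all genes with edgeR, 14.3% with limma voom and 10.3% with DESeq2. The corepressor genes that ETO proteins work with and that are given here did not pass. HDAC3, a histone deacetylase of the nuclear receptor corepressor complexes, had a log2 change of -0.23 ± 0.16 (SE, edgeR adjusted p = 0.56), HDAC2 of 0.14 ± 0.12 (adjusted p = 0.66) and TBL1XR1, another subunit of those complexes, of 0.10 ± 0.12 (adjusted p = 0.757).

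Of the 4 ID proteins, which bind E-proteins and keep them off DNA, ID3 rose and the other 3 did not pass. ID3 had 55.0 and 50.2 CPM in knockout libraries and 28.1 and 21.8 CPM in parental libraries (log2 change 1.07 ± 0.17, SE, edgeR adjusted p = 0.0277), and it was called in all 14 alternatives, with adjusted p of 6.35e-09 to 0.049. These alternatives refit the same libraries, and the list was written with earlier results known, so the call is given as a description. ID2 had 101 and 85.5 CPM in knockout libraries and 70.6 and 72.5 CPM in parental libraries (edgeR adjusted p = 0.248). ID4 had 33.3 and 32.1 CPM in knockout libraries and 45.1 and 49.4 CPM in parental libraries (adjusted p = 0.145). ID1 was low, at 4.61 and 2.01 CPM in knockout libraries and 2.33 and 1.75 CPM in parental libraries. The median of the 4 log2 changes was 0.54, with ID4 alone negative. At an unadjusted p under 0.05 stood 3 of the 4 genes with edgeR, and also 3 with DESeq2 and 3 with limma voom.

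Of 24 E-protein partners and members of the LMO and LDB1 complexes, 13 were tested and none passed with edgeR, DESeq2 or limma voom (2, 1 and 2 at an unadjusted p under 0.05). GATA2, a factor of blood progenitors, had 29.7 and 26 CPM in knockout libraries and 17.8 and 17.2 CPM in parental libraries (log2 change 0.67 ± 0.17, SE, edgeR adjusted p = 0.135). LMO2, a bridging protein of that complex, had 1.98 and 1.54 CPM in knockout libraries and 0.398 and 0.635 CPM in parental libraries (adjusted p = 0.243). SSBP4 and LMO4 had log2 changes of -0.52 and 0.25 (adjusted p = 0.453 and 0.533). Of 19 RUNX cofactors and partners in the annotation, 17 were tested, with a median log2 change of 0.17. None passed with edgeR or limma voom (4 at an unadjusted p under 0.05 with each), while 2 passed with DESeq2, FLI1 and ETS1. The ETS factors FLI1 and ETS1 had log2 changes of 1.75 ± 0.36 and 1.5 ± 0.31 (SE, edgeR adjusted p = 0.071 and 0.0781). ELF1 had one of 0.49 (adjusted p = 0.26), and the corepressor TLE4 one of -0.41 (adjusted p = 0.266).

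Known target genes did not pass either. Of 14 RUNX targets, 4 were tested and none passed with edgeR, DESeq2 or limma voom (1 at an unadjusted p under 0.05 with each), and 6 had no reads in any library. ALPL, alkaline phosphatase of bone and other tissues, had 9.86 and 11.7 CPM in knockout libraries and 5.34 and 5.32 CPM in parental libraries (edgeR adjusted p = 0.132). VEGFA, COL10A1 and CDKN1A had log2 changes of -0.39, 0.37 and -0.63 (adjusted p = 0.377, 0.506 and 0.519). Of 14 E-protein targets, 8 were tested and none passed with edgeR, DESeq2 or limma voom (0 at an unadjusted p under 0.05 with each), with a median of 0.10. CDKN1A again, EBF1, CDKN2A and RAG1 had the smallest p, and the log2 changes of EBF1, CDKN2A and RAG1 were 0.78, -0.18 and 0.88 (adjusted p = 0.565, 0.616 and 0.653).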

How the data were processed

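Total RNA of 2 LARP7 knockout and 2 parental HEK293 libraries was quantified per transcript by the authors. The deposited tables give estimated counts and TPM per transcript, and effective transcript lengths, per the file headers. Tools named per the submitters' processing notes are Salmon 1.6, edgeR 3.24.3, R 3.5.1 and 3.3.3, STAR 2.5.3a, cutadapt 1.6, Picard and SAMtools 1.3.1, with build hg38. Not given in the sources used here are the roles of these tools, the annotation and strandedness. Without known strandedness, reads of a gene and of an antisense partner cannot be told apart. Dividing reads among similar transcripts adds an error that no test here sees.

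Transcripts were joined to GENCODE v29 (197318 of 198002 matched), and counts were summed per gene and rounded. Genes were tested with edgeR 4.0.16 in R 4.3.3 (filterByExpr, TMM, quasi-likelihood test of knockout against parental, p adjusted by Benjamini-Hochberg over all genes, threshold 0.05). CPM uses the TMM factors. TPM was used only within a library or gene, because protein-coding transcripts held 41.1 and 37.4% of TPM in knockout libraries and 38.7 and 28.3% in parental libraries. Transcript usage was tested with diffSpliceDGE over transcripts that reached 10 reads and 5% of their gene in at least 2 libraries. The gene and usage tests were run on simulated counts with known changes. That simulation did not include the division of reads among similar transcripts. The result of 1 gene of the corepressor list, and so that list's count and median, and 1 exon sequence are not reported here. Alternatives were DESeq2 1.42.0, limma 3.58.1, other scaling, filters and windows, a length offset, leaving out each library, and a replicate block. Named in the text were the 9 genes, LARP7 and 7SK, up to 4 genes per pathway list (those called, then the smallest p), transcripts with at least 10% of their gene's TPM in a group, and the 5 genes most like RUNX1T1; other transcripts and start regions were chosen after their values were seen. 7SK has 2 entries at its locus, and the one that holds the reads was used. The 9 genes, the lists and the marker genes were chosen with earlier results of these data known. Totals of 12851942 to 18483220 reads gave the 9 genes 26 to 1997 reads per library, and intervals and limits for a count of 0 cover counting error only.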

Additional observations from a re-analysis of the deposited data

How the results depend on the processing

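RUNX1T1 kept a positive change under all 14 alternatives, 1.34 to 1.59 with each library left out and 1.26 with the offset for transcript length. The number of the 9 genes called was 1 and became 0 with that offset and 0 to 2 with each library left out. Directions turned with the offset for RUNX1 (-0.16), CBFB (-0.089) and CBFA2T3 (-0.11). With each library left out, the change of RUNX1 ran from -0.0013 to 0.24 and that of CBFB from -0.059 to 0.24, negative without parental replicate 2. That of RUNX2 ran from -0.32 to 0.051, positive without knockout replicate 1. That of CBFA2T3 ran from -0.22 to 0.78, negative without knockout replicate 1 (-0.22) or parental replicate 1 (-0.08). Over all genes, 154 were called (61 higher, 93 lower), against 411 with DESeq2, 831 without a filter, 91 with the offset, 1656 with the replicate block, and 200 to 2265 with each library left out. The highest counts came without parental replicate 1 (2265) or replicate 2 (1825). With library size alone the split was 106 higher and 82 lower, and the median change of all genes was 0.10 in place of 0.00236.

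Of the 9 genes, 2 were called for usage, and 0 were with limma diffSplice, the replicate block or each library left out. For CBFA2T2 the adjusted p was 0.594 with diffSplice, 0.295 with the block and 0.0796 to 0.315 with each library left out; for TCF3 it was 0.692, 0.256 and 0.0676 to 0.385. Over all genes, 65 were called for usage, against 0 with diffSplice (794 at an unadjusted p under 0.05), 0 with the block (345), 133 without a share minimum, 21 at a minimum of 10%, and 0 to 92 with each library left out. The labels do not say whether libraries with the same replicate number belong together. Deviations of the replicates numbered 1 from their group means had r = 0.133 across 18484 genes. Genes are not independent replicates, so this value cannot settle it.

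The CBFB-202 share differed by 0.21 percentage points between groups by TPM, and by -4.10 by reads and -3.03 over protein-coding transcripts. The median around RUNX1T1 was 0.015 within 2 Mb, in place of -0.06 within 5 Mb. That of RUNX targets was 0.085 with library size alone, in place of -0.0079 with TMM factors. Between the same 2 settings, the median of all genes went from 0.00236 to 0.10. The E12 exon share of TCF3 differed by -13.6 percentage points by TPM and, in alternatives chosen after seeing the data, by -17.9 over protein-coding transcripts and -9.68 by reads. The cause of these shifts was not tested. RUNX2 and CBFA2T3, with 26 to 92 reads per library, allow no firm statement on their level or transcripts.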
